A study of Macaca fascicularis with 32 samples.

Results

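NMNAT1, NMNAT2, NMNAT3, NAMPT and SARM1 make and use nicotinamide adenine dinucleotide (NAD) and set how long an injured axon survives. They were followed across cell classes, brain regions and treatment groups in single nuclei of cynomolgus macaques. The 5 genes were found by symbol among the 22316 genes of the annotation, as NMNAT1 (ENSMFAG00000001659), NMNAT2 (ENSMFAG00000043841), NMNAT3 (ENSMFAG00000044228), NAMPT (ENSMFAG00000028242) and SARM1 (ENSMFAG00000000906). The tissues were substantia nigra (SN), where midbrain dopamine neurons lie, and 2 striatal targets of these neurons, putamen (PUT) and caudate nucleus (CN). Animals of the PD group modelled Parkinson's disease and had received an AAV (adeno-associated virus) plus Poly(ADP-ribose), the polymer that PARP enzymes build from NAD; CT animals were the controls. The labels give no age, dose, interval, vector promoter, injection site or treatment of the controls. They list 32 samples, of which PUT CT and CN CT hold 8 each and the other groups 4 each. The counts form 6 matrices, 1 for each region and group, with no map from nuclei to samples or animals.

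NAD is consumed by sirtuins, PARPs, CD38 and SARM1, which release nicotinamide. NAMPT, the rate-limiting enzyme of the salvage route, turns nicotinamide into nicotinamide mononucleotide (NMN), and the NMNAT enzymes turn NMN into NAD in different places. NMNAT1 is nuclear, NMNAT2 sits on Golgi and transport vesicles and is carried along axons, and NMNAT3 is mitochondrial. NMNAT2 is short-lived, and when its supply to an axon stops, NMN rises and NAD falls. That shift activates SARM1, an NAD-cleaving enzyme whose activity breaks the axon down. Nigrostriatal axons are long and highly branched, and their loss is a feature of Parkinson's disease.

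Each matrix was counted as 1 library, so no difference has a replicate check, and group, animals and library cannot be told apart. All intervals are exact 95% intervals for counting error only, and no test between groups was made. After filtering, 52731 of 56659 barcodes were retained, with totals from 18692617 UMIs (unique molecular identifiers, the molecules counted; SN PD) to 36723856 UMIs (CN PD). In all, 732 retained nuclei carried a barcode that another library also held. Classes were named from fixed marker genes that include no member, and carry "-like" for that reason. Dopaminergic neuron-like nuclei were found in SN libraries and in no striatal library, and SPN-like (spiny projection neuron-like) nuclei in striatal ones, except for 9 direct and 9 indirect pathway nuclei in SN PD. CT and PD nuclei of a class often lay in different clusters, and 3772 barcodes with markers of more than 1 class were set apart. Levels are in CPM (counts per 1000000 UMIs, here of all nuclei of a class in a library). UMIs of the retained nuclei numbered 55175 for NMNAT2, 5034 for SARM1, 4551 for NMNAT3, 4411 for NAMPT and 2448 for NMNAT1. These depths set how finely each gene can be read.

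NMNAT2 was highest in neuron-like nuclei in every library and low in astrocyte-like and myeloid-like nuclei. Dopaminergic neuron-like nuclei, found in SN, had 726 CPM in CT and 645 in PD. Other neuron-like nuclei had 483 CPM in SN CT and 446 in SN PD. In the striatum this class stood higher, with 776 CPM in PUT CT, 725 in PUT PD, 722 in CN CT and 661 in CN PD. In the SPN-like nuclei that receive nigral dopamine, levels kept to a narrow range, from 412 to 466 CPM over both SPN classes and 4 libraries. Direct and indirect pathway SPN-like nuclei of PUT CT did not differ beyond counting error, at 427 and 414 CPM (ratio 1.03, 0.986 to 1.08).

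Oligodendrocyte precursor-like nuclei had an intermediate level of NMNAT2, from 221 CPM in SN CT to 347 in PUT PD. Oligodendrocyte-like nuclei ranged from 75.6 CPM (CN CT) to 193 (PUT PD). Astrocyte-like nuclei lay between 28.4 and 58.8 CPM and myeloid-like nuclei between 22.6 and 61.1. Within SN CT the level in dopaminergic neuron-like nuclei was 1.5 times that of other neuron-like nuclei (1.41 to 1.61), 8.92 times that of oligodendrocyte-like nuclei (8.25 to 9.66) and 32.0 times that of myeloid-like nuclei (19.4 to 57.3). When the classes of a library were put in order of NMNAT2, 22 of 35 neighbouring pairs over the 6 libraries had an interval that excluded 1.

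**Figure D1:**
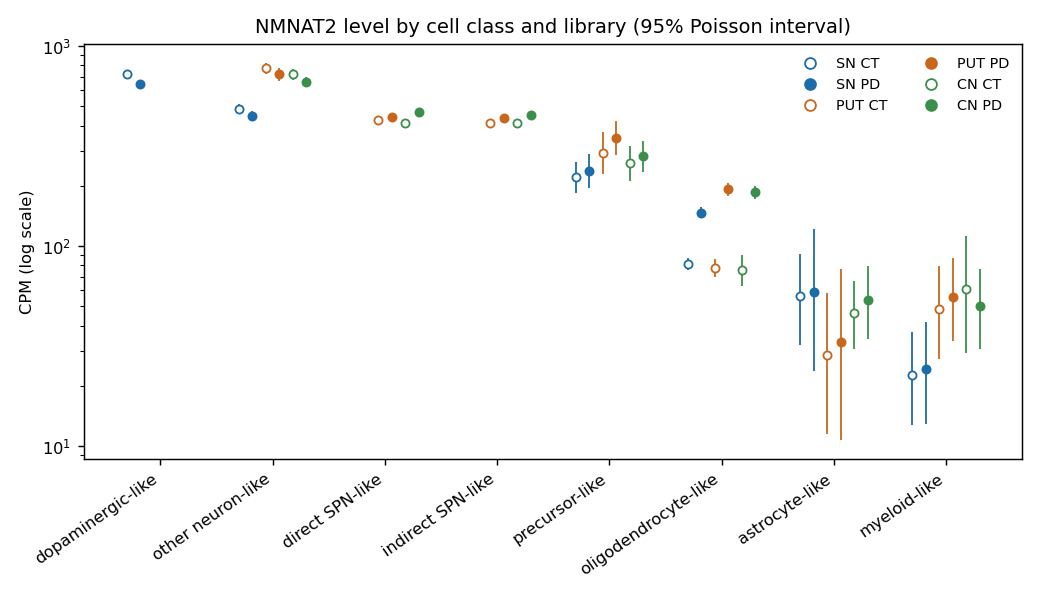
NMNAT2 level (CPM, log axis) in each cell class of at least 50 nuclei, with open points for CT and filled points for PD libraries and bars for 95% Poisson intervals. Neuron-like classes sit at 412 CPM and above in all libraries, and in the oligodendrocyte-like class filled points stand clear of open ones.

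NMNAT2 was detected in nearly all dopaminergic neuron-like nuclei, 97.7% in CT (95.6% to 99.0%, Clopper-Pearson) and 97.7% in PD (95.2% to 99.2%), which were deep nuclei with medians of 14319 and 14359 UMIs. Thinned to 1000 UMIs a nucleus, 53.9% and 49.2% of them still held an NMNAT2 UMI. Myeloid-like nuclei, immune cells without an axon, held one in 2.04% (SN CT) to 4.63% (PUT PD) of nuclei, at median depths of 765 to 991 UMIs over the 6 libraries. Free RNA, released from broken cells into every droplet, was not measured, so this share is given for comparison and sets no limit for it. In oligodendrocyte-like nuclei the CT shares were 8.87% in SN, 7.78% in PUT and 6.33% in CN, at median depths of 1157, 1049 and 844 UMIs.

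Neuron-like clusters differed in NMNAT2 among themselves, as the plot of clusters shows. Among 15 clusters of other neuron-like nuclei with at least 50 nuclei, the level ran from 179 CPM in a cluster led by GRIK1, SPHKAP and OTX2 to 1438 CPM in one led by NOS1 and NPY. NOS1 and NPY mark striatal interneurons that make nitric oxide and neuropeptide Y. In that cluster NMNAT2 was 2063 CPM in PUT CT (37 nuclei), 1898 in PUT PD (26 nuclei), 1220 in CN CT (51 nuclei) and 795 in CN PD (35 nuclei). All 4 libraries were above the SPN-like range, but they did not give 1 common level. Clusters led by SPOCK1, PCSK5 and NXPH2 came next, at 831 to 1036 CPM. The 11 clusters of direct SPN-like nuclei spanned only 403 to 482 CPM. The 9 of indirect SPN-like nuclei spanned 398 to 671 CPM, with the highest value in a cluster led by KCNT2, RBM20 and NETO1. The clusters were made from the same counts, so these values are a description.

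**Figure D2:**
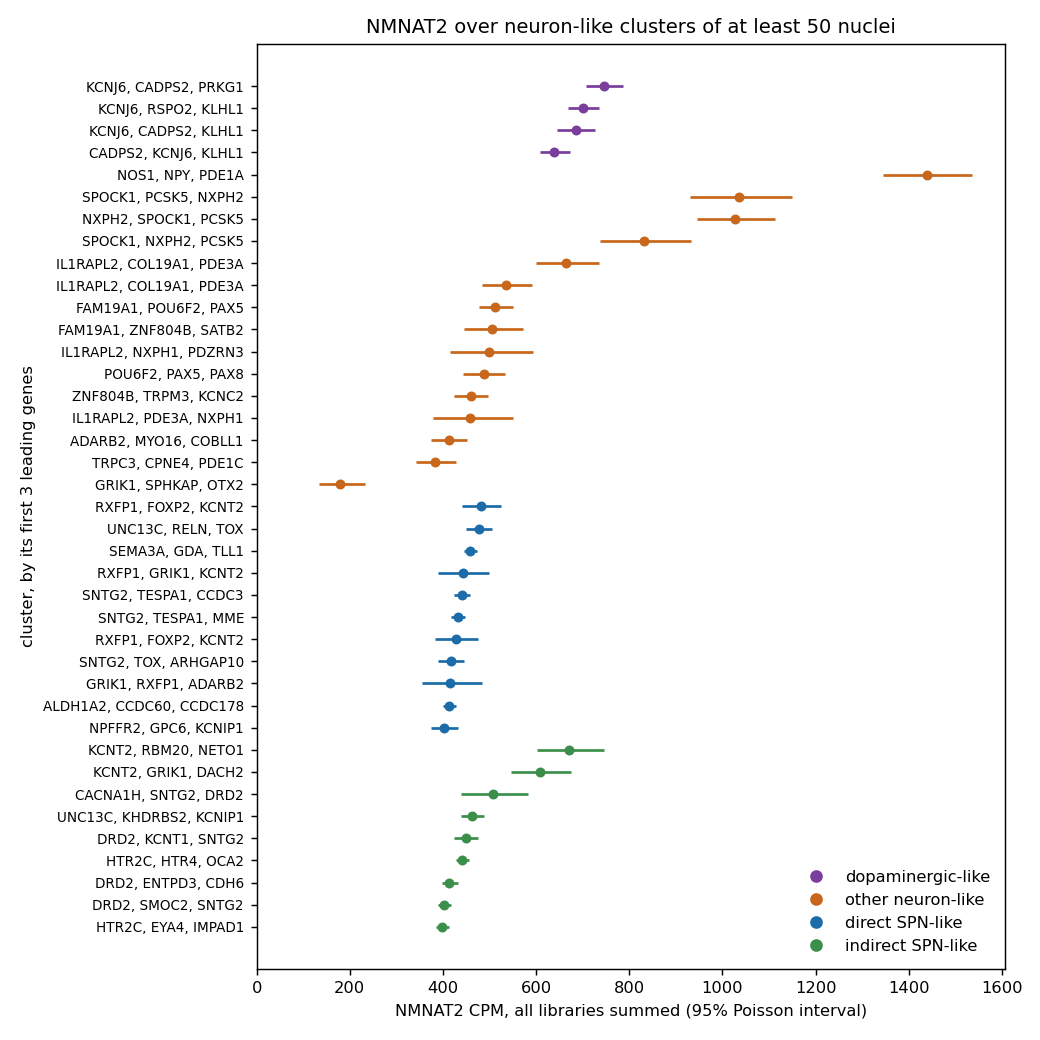
NMNAT2 level (CPM, linear axis from 0, all libraries summed) in each neuron-like cluster of at least 50 nuclei, labelled by its first 3 leading genes and coloured by class, with 95% Poisson intervals. The cluster led by NOS1 and NPY stands at 1438 CPM, while direct SPN-like clusters keep between 403 and 482 CPM.

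The plot of the other 4 members shows flatter profiles on fewer UMIs. NMNAT1, the nuclear enzyme, had its highest median over libraries in astrocyte-like nuclei among classes with at least 50 nuclei in 2 libraries or more, 25.8 CPM (19.8 to 38.7 over 6 libraries). The 2 SN libraries gave 21.7 (CT) and 20.3 CPM (PD) in dopaminergic neuron-like nuclei. Oligodendrocyte-like nuclei ranged from 9.34 CPM (CN PD) to 26.7 (SN CT). No neighbouring pair of classes, of 35, differed in NMNAT1 beyond counting error. Between regions, NMNAT1 in oligodendrocyte-like nuclei of CT was 1.48 times as high in SN as in PUT (1.15 to 1.91) and 1.57 times as high as in CN (1.07 to 2.40).

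NMNAT3, the mitochondrial enzyme, had its highest medians over libraries in indirect SPN-like, myeloid-like and direct SPN-like nuclei. Indirect SPN-like nuclei had a median of 42.9 CPM over 4 libraries (30.1 to 50.3) and direct SPN-like nuclei 38.3 (29.6 to 48.8). Dopaminergic neuron-like nuclei were at the other end, with 7.80 CPM in CT and 13.9 in PD. Myeloid-like nuclei had a median of 41.1 CPM, on 5 to 28 UMIs a library, and in CN CT were at 42.8 CPM against 29.9 and 30.1 in direct and indirect SPN-like nuclei. In PUT CT the indirect SPN-like level exceeded the direct one by 1.30 times (1.11 to 1.53). In SN CT the level in oligodendrocyte-like nuclei was 1.61 times that in dopaminergic neuron-like nuclei (1.12 to 2.35).

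NAMPT, the salvage enzyme, had its highest level in vascular-like nuclei, a class of 16 to 44 nuclei a library, too few to be plotted. CT libraries gave 140 CPM in SN, 347 in PUT and 682 in CN, and PD libraries 237, 193 and 206, from 4 to 14 UMIs each. Within that class the UMIs lay mostly in 1 cluster led by ATP10A, FLT1 and MECOM, genes of endothelium, with 675 CPM (468 to 944; 34 UMIs in 55 nuclei). A cluster led by LAMA2, ATP1A4 and SLC6A12 had 152 CPM. Among larger classes, myeloid-like nuclei had the highest median, 49.4 CPM (31.7 to 59.7), followed by oligodendrocyte-like nuclei with 34.5 (21.2 to 47.5). Dopaminergic neuron-like nuclei had 21.1 CPM in CT and 20.8 in PD, with the lowest median of the classes with at least 50 nuclei in 2 libraries or more. CT oligodendrocyte-like nuclei were lower in SN than in PUT (ratio 0.559, 0.453 to 0.688) and than in CN (0.446, 0.342 to 0.585). In the PD libraries SN was above PUT (1.36, 1.05 to 1.77).

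SARM1 was higher in neuron-like nuclei than in most glia. Dopaminergic neuron-like nuclei had 51.0 CPM in CT and 39.1 in PD. Other neuron-like nuclei had a median of 42.6 CPM (35.2 to 50.8), indirect SPN-like nuclei 41.2 (40.03 to 42.2) and direct SPN-like nuclei 40.4 (35.4 to 41.1). Oligodendrocyte-like nuclei had a median of 14.5 CPM (13.5 to 19.4) and astrocyte-like nuclei 13.1 (6.59 to 17.9). Precursor-like nuclei had a median of 23.7 CPM (16.5 to 33.5) and myeloid-like nuclei 11.5 (2.94 to 36.7), on few UMIs, so their highest libraries came close to neuron-like levels. Of 35 neighbouring pairs of classes, 3 had an interval that excluded 1. In SN CT, SARM1 was 2.41 times as high in other neuron-like as in precursor-like nuclei (1.30 to 4.96). The highest of its neuronal clusters of at least 50 nuclei were an indirect SPN-like cluster led by CACNA1H (71.4 CPM) and the NOS1 and NPY cluster (70.2 CPM). In RefSeq's annotation of another assembly, T2T-MFA8v1.1, SARM1 overlaps SLC46A1, which is also in the gene list. Whether counting used strand is not given in the sources used here, so SARM1 values are uncertain to that extent. The other 4 members overlap no gene there.

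**Figure D3:**
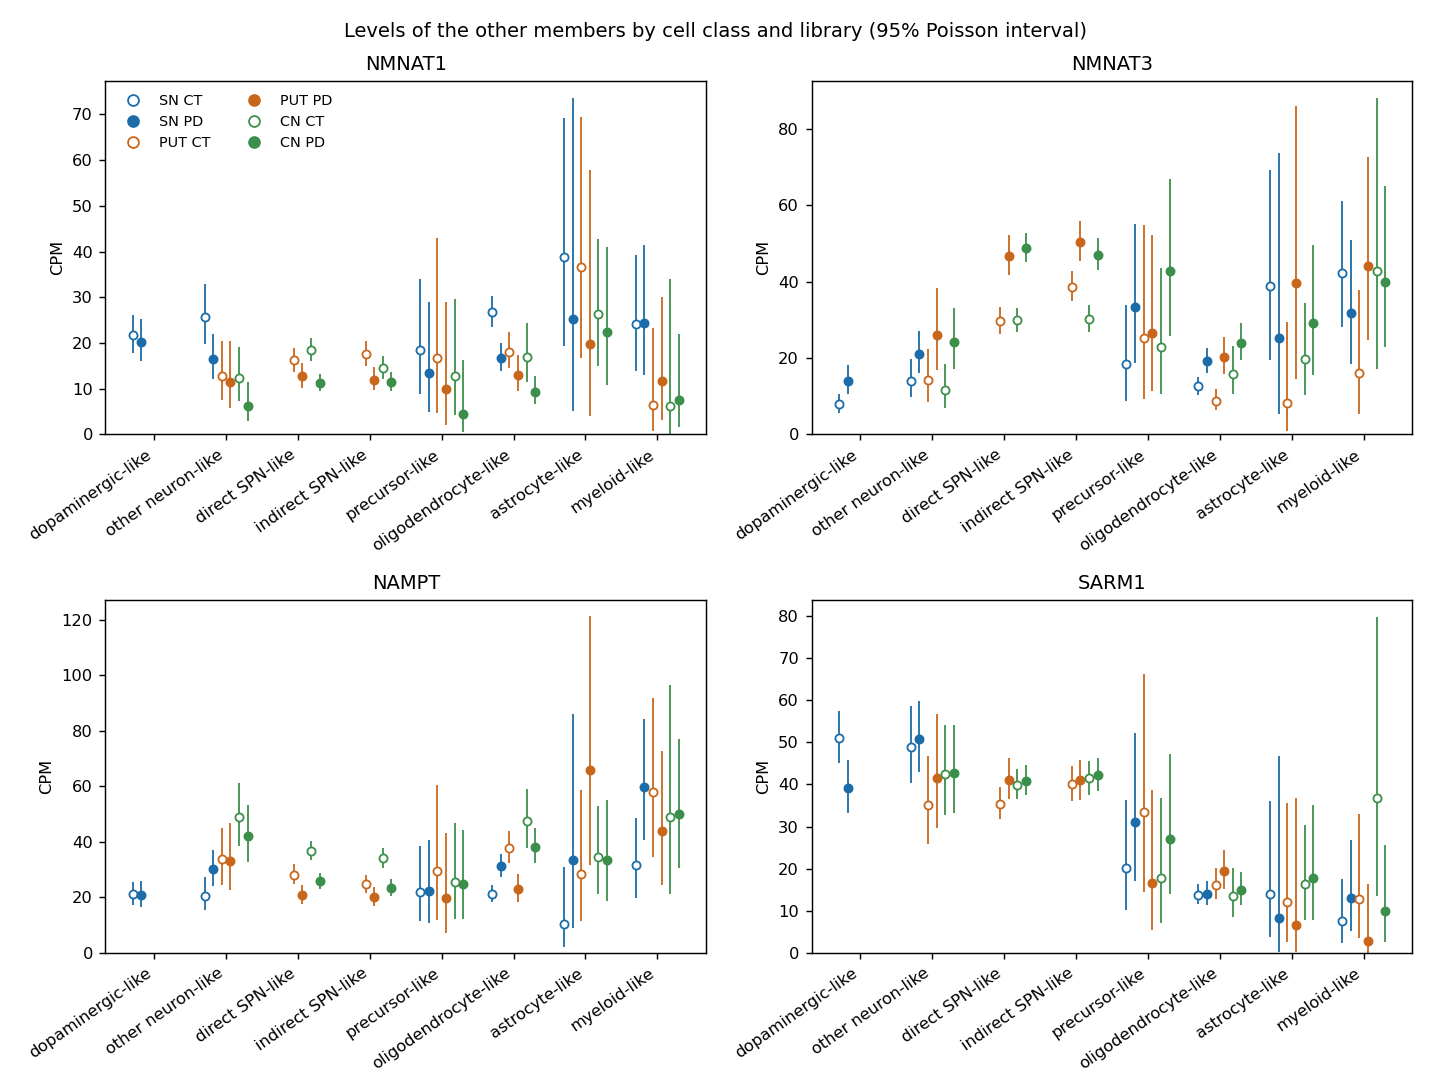
Levels (CPM, linear axes from 0) of NMNAT1, NMNAT3, NAMPT and SARM1 in each cell class of at least 50 nuclei, with open points for CT and filled points for PD libraries and 95% Poisson intervals. NMNAT3 has its highest medians in SPN-like and myeloid-like nuclei (38.3 to 42.9 CPM) and its lowest in dopaminergic neuron-like nuclei, and SARM1 sits near 40 CPM in SPN-like nuclei of the 4 striatal libraries.

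Genes with the most similar pattern were ranked by Pearson's r of log2(CPM + 1) over 41 class-by-library points, among 10995 genes. For NMNAT2 they were TMEM178B (0.94), CACNA1D, a calcium channel subunit (0.93), and FGF12, a modulator of sodium channels (0.93). For SARM1 they were BICDL1 (0.83), SYN2, a synaptic vesicle protein (0.83), and RIMBP2, a presynaptic scaffold protein (0.82). The closest genes to NMNAT1 (ZNF350, CD38, CDK5RAP1), NMNAT3 (SMAD3, FNDC3B, DIAPH2) and NAMPT (MICOS10, DNLZ, AOX2) reached at most 0.73, 0.69 and 0.70. Of the 10 pairs of members, NMNAT2 and SARM1 had the highest r, 0.75. Points of a library share its depth, and points of a class its cell type, so these values describe the libraries.

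Between groups, a member was compared where a class had at least 100 nuclei in both libraries of a region and the gene at least 50 UMIs over both. A member was counted as past the fold when its ratio was at least 1.5 either way and its interval excluded 1. This held for 16 of 57 values (28.1%), 11 higher and 5 lower in PD, against 13.7% of the gene values in the same 16 class comparisons. Of the 16, 5 were past the fold under every alternative processing that gave a call. Those 5 were NMNAT2 in oligodendrocyte-like nuclei of SN, PUT and CN, and NMNAT3 in oligodendrocyte-like nuclei of PUT and direct SPN-like nuclei of CN.

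The count was highest in oligodendrocyte-like nuclei, with 3 of 5 members in SN (15.9% of all genes tested were past the fold there), 3 of 5 in PUT (17.4%) and 2 of 5 in CN (15.2%). In SN, 1 of 5 members was past the fold in dopaminergic neuron-like nuclei (12.1%), 1 of 5 in other neuron-like nuclei (9.8%) and 1 of 1 measured in myeloid-like nuclei (22%). Direct SPN-like nuclei gave 1 of 5 in PUT (12.6%) and 2 of 5 in CN (15.8%). Indirect SPN-like nuclei gave 0 of 5 in PUT (12.8%) and 1 of 5 in CN (16.5%). Other neuron-like nuclei of the striatum gave 0 of 3 in PUT (9.1%) and 1 of 4 in CN (11.9%). Only NMNAT2 had enough UMIs in precursor-like nuclei of SN (8.53%), PUT (8.78%) and CN (9.69%) and in astrocyte-like nuclei of CN (12.4%), and it was past the fold in none of them. In most neuronal comparisons the members' count is thus near the background. All genes together were shifted down in PD in direct and indirect SPN-like nuclei of CN, by a median log2 ratio of -0.14 and -0.15, and differences there are also given relative to that median.

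**Figure D4:**
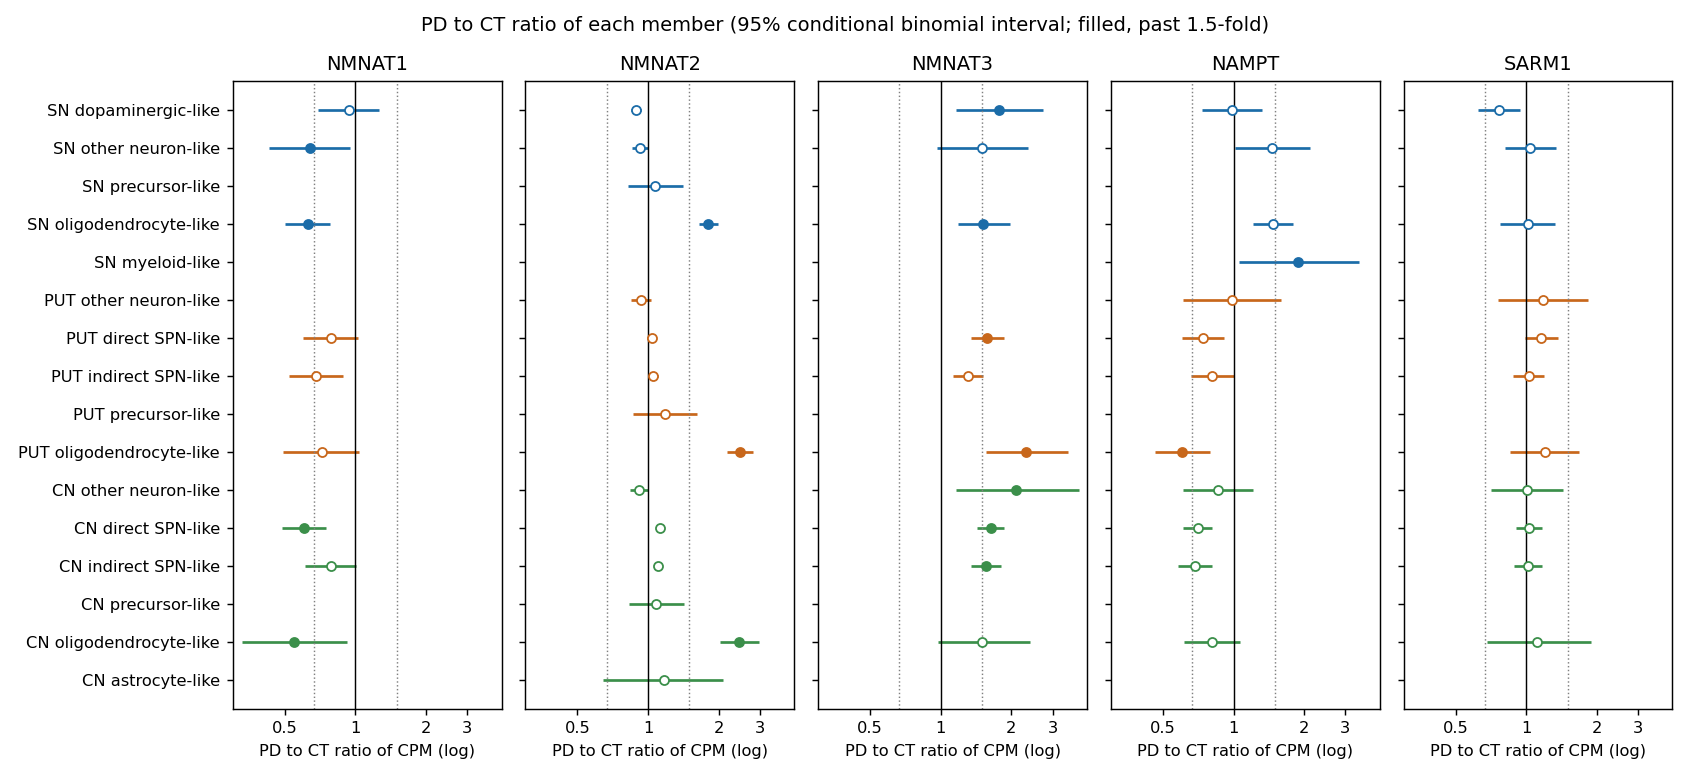
PD to CT ratio of CPM (log axis) for each member in each class and region where it was measured, with 95% conditional binomial intervals. Filled points are past 1.5-fold (dotted lines) with an interval that excludes 1; all 9 NMNAT1 ratios are below 1 and all 10 NMNAT3 ratios are above it.

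NMNAT2 was higher in PD in oligodendrocyte-like nuclei of all 3 regions and within 1.2-fold of CT in the other classes. Its level was 81.3 CPM in SN CT and 147 in SN PD (746 and 1079 UMIs), a ratio of 1.81 (1.64 to 1.99). PUT CT had 78.1 CPM and PUT PD 193 (367 and 698 UMIs; 2.47, 2.18 to 2.81). CN CT had 75.6 CPM and CN PD 185 (129 and 755 UMIs; 2.45, 2.03 to 2.98). The 3 CT libraries lay close together and below all 3 PD libraries. Of 9020 genes measured in oligodendrocyte-like nuclei of every region, 5.01% had an interval above 1 in all 3, as NMNAT2 did. The share of nuclei with an NMNAT2 UMI was 14.7% in SN PD, 20.4% in PUT PD and 17.5% in CN PD, above the CT shares given earlier. Thinned to 1000 UMIs, the CT shares were 7.81%, 7.38% and 5.81% and the PD shares 12.4%, 16.2% and 14.8%, in the same order of regions. Thinning left out nuclei with fewer than 1000 UMIs, and unequally. It kept 4253 of 6683 oligodendrocyte-like nuclei in SN CT and 3315 of 5803 in SN PD. In PUT it kept 2262 of 4061 (CT) and 2407 of 2731 (PD), and in CN 499 of 1863 (CT) and 2142 of 3336 (PD). Myeloid-like nuclei thinned likewise gave 3.00%, 1.41% and 3.45% in CT and 2.16%, 3.12% and 7.14% in PD, from 29 to 200 nuclei a library.

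The same direction appeared inside most oligodendrocyte-like clusters. Of 17 comparisons of a cluster with itself, with at least 20 nuclei in each library, 16 had a ratio above 1 and 9 an interval above it. The ratio below 1 was in a PUT cluster with 23 and 5 NMNAT2 UMIs (0.965, 0.287 to 2.60). Clusters with many PD and few CT nuclei gave smaller or less certain ratios. In SN those with 2518 and 1734 PD nuclei had 1.38 (0.973 to 2.02) and 1.39 (0.968 to 2.06). In PUT those with 759 and 767 had 1.87 (0.788 to 5.80) and 1.45 (0.717 to 3.41). In CN those with 1242 and 1604 had 2.51 (0.689 to 20.8) and 2.41 (1.10 to 6.63). Taken within clusters (Mantel-Haenszel over every cluster with nuclei in both libraries, with a large-sample interval), the ratios were 1.65 in SN, 2.20 in PUT and 2.22 in CN. The lowest ratio under any alternative was 1.63 in SN, 1.77 in PUT and 2.22 in CN.

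Neuronal RNA in these nuclei was measured with 8 neuron markers (SYT1, SNAP25, RBFOX3, CELF4, GRIN1, NRGN, SYN1 and ELAVL4). Their summed level in oligodendrocyte-like nuclei was 221 CPM in SN CT and 276 in SN PD (ratio 1.25, 1.17 to 1.33), with 8 of 8 markers higher in PD. RBFOX3 and NRGN held at most 6 UMIs a library there, and SYT1 made up 1425 of the 2029 marker UMIs of SN CT. In PUT it was lower in PD, 578 against 384 CPM (0.664, 0.622 to 0.709), with 2 of 8 markers higher. In CN it was 506 against 497 CPM (0.981, 0.906 to 1.06), with 4 of 8 higher, and no marker was at 0 in any of the 6 libraries. NMNAT2 and the marker sum were thus both higher in SN PD. In the striatum NMNAT2 was higher in PD and the sum was not, though single markers were. Whether the NMNAT2 difference goes with neuronal RNA was not tested. For every 100 neuron-marker UMIs, neuron-like nuclei held 12.9 to 19.5 NMNAT2 UMIs over the 6 libraries. Oligodendrocyte-like nuclei of the CT libraries held 36.8 in SN, 13.5 in PUT and 14.9 in CN, and those of the PD libraries 53.3, 50.3 and 37.3. In neuron-like nuclei of the same libraries the CT values were 13.5, 17.5 and 16.8 and the PD values 12.9, 19.5 and 17.7. Oligodendrocyte-like nuclei of PUT CT and CN CT thus lay below the ratio of their own library's neurons, and those of the 3 PD libraries and SN CT above it. Among oligodendrocyte-like nuclei with no UMI of these markers, NMNAT2 was 82.8 CPM in CT and 143 in PD in SN (1.72, 1.54 to 1.93), 80.8 and 188 in PUT (2.33, 1.9595 to 2.78) and 67.4 and 186 in CN (2.75, 2.15 to 3.58). Median depths of the class were 844 to 1207 UMIs, so a nucleus can lack a marker UMI and still hold free neuronal RNA. In PUT CT, 2140 of 4061 nuclei had none. How much NMNAT2 came from free RNA was not tested.

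**Figure D5:**
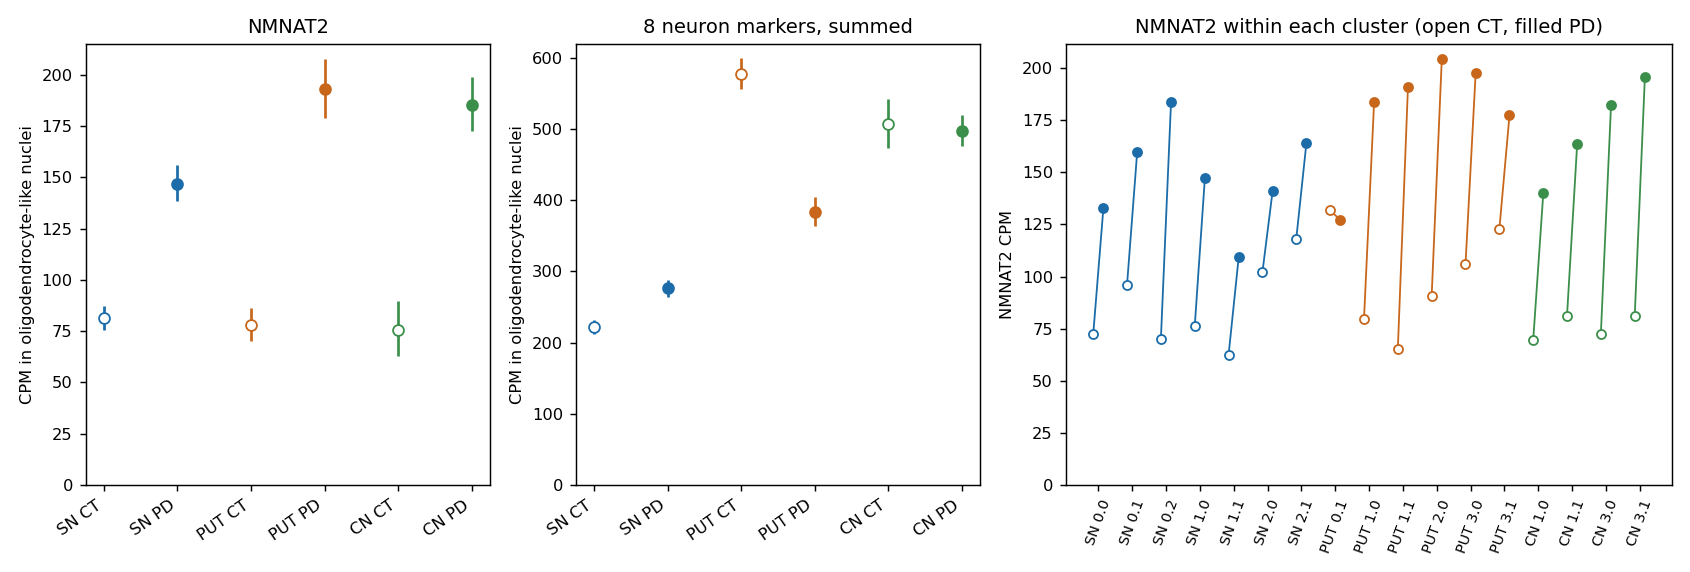
Oligodendrocyte-like nuclei: NMNAT2 (left) and the sum of 8 neuron markers (middle), both in CPM by library with 95% Poisson intervals, and NMNAT2 in CPM inside each cluster that had at least 20 nuclei in both libraries of a region (right, cluster numbers on the axis). NMNAT2 is 75.6 to 81.3 CPM in the 3 CT libraries and 147 to 193 in the 3 PD libraries. The summed neuron markers are 221 to 578 CPM in CT and 276 to 497 in PD.

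Precursor-like nuclei, the cells from which oligodendrocytes form, did not show this contrast. NMNAT2 was 221 CPM in SN CT and 238 in SN PD (1.07, 0.820 to 1.41), 294 and 347 in PUT (1.18, 0.866 to 1.62), and 260 and 282 in CN (1.09, 0.829 to 1.42). These intervals do not exclude a modest difference, and whether the classes differ in their response was not tested. All 3 ratios turned below 1 in nuclei thinned to 1000 UMIs, while other alternatives raised them. Over all alternatives they ran from 0.874 to 1.42 in SN, 0.978 to 1.32 in PUT and 0.872 to 1.41 in CN. In nuclei without neuron-marker UMIs they were 1.42 (0.870 to 2.33), 1.20 (0.658 to 2.25) and 0.868 (0.486 to 1.54), in that order.

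In neurons, the class levels of NMNAT2 in PD were within 1.2-fold of CT, while single clusters were further below. In dopaminergic neuron-like nuclei the PD level was 0.888 times that of CT (0.844 to 0.935), with no alternative outside 0.866 to 0.908. The clusters of this class were also compared with themselves, and ALDH1A1, a gene of ventral tier dopamine neurons, was read beside NMNAT2. The cluster with 83 CT and 27 PD nuclei had 778 CPM of NMNAT2 in CT and 652 in PD (0.839, 0.735 to 0.956), and 511 and 294 CPM of ALDH1A1. The one with 95 and 72 nuclei had 715 and 680 CPM of NMNAT2 (0.951, 0.863 to 1.05), and 539 and 377 CPM of ALDH1A1. The one with 51 and 105 nuclei had 683 and 621 CPM of NMNAT2 (0.909, 0.815 to 1.02), with ALDH1A1 at 131 and 178 CPM. NMNAT2 was thus lower in PD in all 3, with an interval that excluded 1 in the first only. These clusters leave out part of the 351 CT and 266 PD nuclei of the class. Whether the class difference goes with a change in subtypes was not tested. Other neuron-like nuclei were also slightly below CT, with ratios of 0.924 (0.853 to 1.001) in SN, 0.934 (0.847 to 1.03) in PUT and 0.915 (0.841 to 0.996) in CN. Of their 10 comparisons of a cluster with itself, 8 were below 1 and 2 had an interval below it. The NOS1 and NPY cluster of CN was past the fold, at 1220 CPM in CT and 795 in PD (51 and 35 nuclei; 0.651, 0.522 to 0.811), but in PUT its ratio was 0.920 (0.767 to 1.10). The other was a SN cluster led by ADARB2, MYO16 and COBLL1 (0.778, 0.643 to 0.939).

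SPN-like nuclei were slightly above CT for NMNAT2. Direct SPN-like nuclei had a ratio of 1.04 (0.988 to 1.09) in PUT and 1.13 (1.09 to 1.17) in CN. Indirect SPN-like nuclei had 1.05 (1.004 to 1.10) in PUT and 1.10 (1.06 to 1.15) in CN. Relative to the median gene of CN, the difference was 0.32 (direct) and 0.29 (indirect) on the log2 scale. None of these 4 values reached 1.5-fold.

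NMNAT3 was higher in PD in all 10 comparisons where it could be measured, with ratios from 1.30 to 2.31, and it kept that direction under every alternative. These come from 3 pairs of libraries, so they are not separate checks. Of the 10, 7 were past the fold, but 4 of these were not when each cluster was compared with itself. Direct SPN-like nuclei had 29.9 CPM in CN CT and 48.8 in CN PD (352 and 613 UMIs; 1.63, 1.43 to 1.87), and within clusters the ratio was 1.62. All 3 of their clusters with enough nuclei in both CN libraries had a ratio above 1, but 0 had an interval that excluded 1. Each had 5 to 8 UMIs in 1 of the libraries. Relative to the median gene there, the difference was 0.85 on the log2 scale. Oligodendrocyte-like nuclei had 8.72 CPM in PUT CT and 20.2 in PUT PD (41 and 73 UMIs; 2.31, 1.56 to 3.48). Those in SN had 12.5 and 19.1 CPM (1.52, 1.18 to 1.963), a value just past the fold that 4 alternatives brought below it. CN had 15.8 and 23.8 CPM (1.51, 0.974 to 2.40), with an interval that includes 1.

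Direct SPN-like nuclei of PUT had 29.6 CPM of NMNAT3 in CT and 46.7 in PD (1.58, 1.34 to 1.86), and a within-cluster ratio of 1.31. Indirect SPN-like nuclei had 38.7 and 50.3 CPM in PUT (1.30, 1.12 to 1.51). In CN they had 30.1 and 47.0 (1.56, 1.35 to 1.81; within clusters 1.45, no longer past the fold, nor in thinned nuclei). The SPN-like values of CN and PUT are thus alike in direction, with the 2 PD libraries above the 2 CT libraries in both classes. Both classes come from the same 4 libraries. Of the genes measured in both regions, 7.20% (direct) and 7.36% (indirect) had an interval above 1 in both, as NMNAT3 did. Dopaminergic neuron-like nuclei had 7.80 and 13.9 CPM, from 41 and 54 UMIs (1.78, 1.16 to 2.74), and other neuron-like nuclei of CN 11.6 and 24.1 CPM from 18 and 39 UMIs (2.09, 1.17 to 3.87; not past the fold with each library clustered on its own). Within clusters these were 1.54 and 1.72, with intervals that include 1. In thinned nuclei the first had a larger log2 ratio, 2.52, on 1 CT and 6 PD nuclei with an NMNAT3 UMI. It was not past the fold there, as its interval included 1. In SN the other neuron-like nuclei had 14.1 and 21.0 CPM (1.495, 0.966 to 2.35).

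NMNAT1 was lower in PD in all 9 comparisons, with ratios from 0.549 to 0.936, of which 5 had an interval below 1. The 9 come from 3 pairs of libraries, so they are not separate checks. Over all genes, values past the fold were more often lower than higher there, as in CN direct SPN-like nuclei (12.7% against 3.19%). Only dopaminergic neuron-like nuclei went the other way (5.55% against 6.57%). The lone turn of direction of NMNAT1 came in oligodendrocyte-like nuclei of CN, at a log2 ratio of 1.60 when only nuclei with at least 1000 genes were used. Of its 4 values past the fold, each lost that standing under at least 1 alternative. Direct SPN-like nuclei of CN had 18.4 CPM in CT and 11.1 in PD (217 and 140 UMIs; 0.605, 0.486 to 0.752), which relative to the median gene is -0.58 on the log2 scale and not past the fold after rescaling. Oligodendrocyte-like nuclei of SN had 26.7 and 16.7 CPM (0.627, 0.501 to 0.782). The ratio was 0.707 (0.547 to 0.908) in those with no neuron-marker UMI. Those of CN had 17.0 and 9.34 CPM, from 29 and 38 UMIs (0.549, 0.330 to 0.923), and lost the call under 4 alternatives. SN other neuron-like nuclei had 25.7 and 16.5 CPM (0.642, 0.430 to 0.954), not past the fold in thinned nuclei. In dopaminergic neuron-like nuclei the CT and PD levels, 21.7 and 20.3 CPM, did not differ beyond counting error (0.936, 0.693 to 1.26).

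Within clusters, 3 of the 4 NMNAT1 ratios of SPN-like nuclei were past the fold with an interval below 1, on few UMIs in 1 of the 2 libraries of most clusters. Direct SPN-like nuclei went from 0.605 to 0.428 in CN (log2 interval -2.17 to -0.27) and from 0.786 to 0.5 in PUT (-1.84 to -0.16), and indirect SPN-like nuclei of PUT from 0.683 to 0.494 (-1.78 to -0.26). Indirect SPN-like nuclei of CN had intervals that include 1, both over the class (0.784, 0.612 to 1.004) and within clusters (0.729, log2 interval -1.26 to 0.35). Of the 3 CN indirect clusters with at least 20 nuclei in both libraries, 2 had a ratio above 1, 1 of them with 0 CT UMIs, and none an interval that excluded 1.

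NAMPT differed in direction between classes and regions. It was past the fold in 2 of 12 comparisons, higher in SN myeloid-like and lower in PUT oligodendrocyte-like nuclei. SN myeloid-like nuclei had 31.7 CPM in CT and 59.7 in PD, from 21 and 32 UMIs (1.88, 1.05 to 3.44). Within clusters, or in thinned nuclei, this was not past the fold. Oligodendrocyte-like nuclei of PUT had 37.9 CPM in CT and 22.9 in PD (178 and 83 UMIs; 0.606, 0.461 to 0.791), a value not past the fold in thinned nuclei. Those of SN had 21.2 and 31.2 CPM (194 and 229 UMIs; 1.47, 1.21 to 1.79), and those of CN 47.5 and 38.3 (0.807, 0.613 to 1.07). The SN and PUT values thus lie on opposite sides of 1, both with intervals that exclude it.

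In neurons, NAMPT was lower in PD in SPN-like nuclei. Direct SPN-like nuclei had 36.8 CPM in CN CT and 25.9 in CN PD (0.703, 0.607 to 0.813), and 28.2 and 20.9 CPM in PUT (0.740, 0.600 to 0.910). Indirect SPN-like nuclei had 34.1 and 23.4 CPM in CN (0.688, 0.582 to 0.811) and 24.8 and 20.1 CPM in PUT (0.812, 0.656 to 1.003). Of 11435 genes measured in direct SPN-like nuclei of both regions, 16.6% had an interval below 1 in both, as NAMPT did. In indirect SPN-like nuclei 16.8% of 11407 genes did, and NAMPT did not. Relative to the median gene, the CN differences were -0.36 (direct) and -0.39 (indirect) on the log2 scale. Within clusters the CN ratios were 0.538 (log2 interval -1.58 to -0.20) and 0.583 (-1.29 to -0.27), past the fold, but most clusters had 1 to 4 UMIs in 1 of the libraries. Among clusters with at least 20 nuclei in both, 0 of 3 direct and 1 of 3 indirect intervals excluded 1. Dopaminergic neuron-like nuclei showed no difference beyond counting error, with 21.1 and 20.8 CPM (0.985, 0.731 to 1.32), and SN other neuron-like nuclei had 20.7 and 30.2 CPM (1.46, 1.02 to 2.11).

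SARM1 was past the fold in 0 of 11 comparisons and had 1 interval that excluded 1. Dopaminergic neuron-like nuclei held that interval, with 51.0 CPM in SN CT and 39.1 in SN PD (268 and 152 UMIs; 0.766, 0.623 to 0.938). All 3 clusters compared with themselves were lower in PD, at 0.463 (0.221 to 0.880), 0.720 (0.439 to 1.15) and 0.657 (0.455 to 0.957). They leave out part of the class. The within-cluster ratio was 0.680. The share of these nuclei with a SARM1 UMI was 50.1% in CT (44.8% to 55.5%) and 38.7% in PD (32.8% to 44.9%), and 5.73% and 5.30% when thinned to 1000 UMIs. NMNAT2 and SARM1 were thus both lower in PD in this class, by different amounts, while NMNAT1 and NAMPT were within counting error and NMNAT3 was higher.

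SARM1 elsewhere was close to CT. Its ratios in SPN-like nuclei were 1.16 (0.987 to 1.36) and 1.02 (0.876 to 1.19) in direct and indirect nuclei of PUT, and 1.02 (0.902 to 1.16) and 1.02 (0.890 to 1.17) in CN. These intervals leave out a fold of 1.5 either way. Oligodendrocyte-like nuclei had ratios of 1.01 in SN, 1.20 in PUT and 1.11 in CN, each with an interval that includes 1. In PUT the within-cluster ratio was 1.90 (log2 interval 0.32 to 1.54), past the fold. The direction of the small differences depended on processing, with 10 of 11 ratios above 1 in the main analysis and 3 of 11 in thinned nuclei.

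The other genes of NAD metabolism were read from lists, in all 19 class comparisons with enough nuclei. These add PUT astrocyte-like (11.7% of all genes past the fold), PUT myeloid-like (12.9%) and CN myeloid-like nuclei (14.4%), where no member was measured, and 13.7% of all gene values in the 19 were past it. Of a list of NAD synthesis and salvage genes, 10 of 12 were in the annotation, and 2 of 54 measured values were past the fold upward and 1 downward. For 14 NAD-consuming enzymes it was 4 upward and 9 downward of 147 values. That is 5.56% and 8.84% of their values. BST1, a cell-surface relative of CD38 that makes cyclic ADP-ribose from NAD, was lower in PD in 6 neuronal comparisons. In direct SPN-like nuclei it was 27.3 CPM in CN CT and 5.81 in CN PD (322 and 73 UMIs; 0.213, 0.163 to 0.275), and 19.7 and 6.20 CPM in PUT (0.315, 0.221 to 0.441). In indirect SPN-like nuclei it was 25.8 and 5.49 CPM in CN (0.213, 0.158 to 0.283), and 24.1 and 5.65 in PUT (0.234, 0.164 to 0.327). In all 4 SPN comparisons the CT level thus stood above the PD level by over 3-fold. Other neuron-like nuclei had ratios of 0.635 (0.415 to 0.965) in SN and 0.329 (0.161 to 0.632) in CN.

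PARP2, an enzyme that builds poly(ADP-ribose) at DNA breaks, went different ways by class. It was higher in PD in dopaminergic neuron-like nuclei, 7.995 against 13.1 CPM (1.64, 1.07 to 2.53). It was lower in direct SPN-like nuclei of CN, 17.1 against 10.2 (0.595, 0.473 to 0.746), and in oligodendrocyte-like nuclei of CN, 20.5 against 11.5 (0.563, 0.356 to 0.898). SIRT4, a mitochondrial sirtuin, was higher in dopaminergic neuron-like nuclei (1.58, 1.05 to 2.38) and lower in indirect SPN-like nuclei of PUT (0.659, 0.460 to 0.935). SIRT2 was higher in PUT myeloid-like nuclei (1.84, 1.21 to 2.87) and SIRT5 in CN astrocyte-like nuclei (1.61, 1.08 to 2.40). HAAO, of NAD synthesis from tryptophan, was higher in SN myeloid-like nuclei (1.84, 1.16 to 2.95). AFMID, of the same route, was higher in PUT direct SPN-like nuclei (1.55, 1.14 to 2.12) and lower in CN oligodendrocyte-like nuclei (0.638, 0.511 to 0.799).

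A list of regulators of axon degeneration and survival, among them kinases, ubiquitin ligase parts and proteases, had 19 of 20 genes in the annotation. They were past the fold in 5 values upward and 8 downward of 243, or 5.35%, below the 13.7% of all gene values in the same 19 comparisons. In dopaminergic neuron-like nuclei 1 of 17 measured genes was past it, the protease gene CAPN2, at 34.6 CPM in CT and 22.9 in PD (0.660, 0.507 to 0.855). The median log2 ratio of those 17 genes was 0.07, beside 0.03 for all genes there. In oligodendrocyte-like nuclei of PUT, STMN2, a microtubule regulator carried along axons with NMNAT2, was lower (38.1 and 21.0 CPM; 0.552, 0.416 to 0.726), opposite to NMNAT2. The summed neuron markers were also lower in these nuclei (0.664, 0.622 to 0.709), and whether STMN2 goes with them was not tested. PELI1 (0.639, 0.511 to 0.797) and the kinase MAP3K12, known as DLK (0.642, 0.426 to 0.953), were lower there too. Of the JNK kinases, MAPK9 was lower in CN indirect SPN-like nuclei (0.664, 0.603 to 0.731), MAPK8 in CN other neuron-like nuclei (0.578, 0.395 to 0.836), and MAPK10 higher in CN astrocyte-like nuclei (1.53, 1.32 to 1.79). BAX, a mitochondrial death effector, was lower in CN indirect SPN-like (0.638, 0.482 to 0.840) and oligodendrocyte-like nuclei (0.546, 0.339 to 0.887). Relative to the median gene of CN indirect SPN-like nuclei, MAPK9 was at 0.738 and BAX at 0.709, neither past the fold. Relative to the median gene of their own comparison, 4 more of these values were short of the fold: SIRT4 in PUT indirect SPN-like nuclei (0.682), PELI1 (0.675) and MAP3K12 (0.677) in PUT oligodendrocyte-like nuclei, and AFMID in CN oligodendrocyte-like nuclei (0.673). ZDHHC17, which attaches palmitate to NMNAT2, was higher in myeloid-like nuclei of SN (1.66, 1.16 to 2.40) and CN (2.40, 1.12 to 5.88). BCL2L1 in PUT myeloid-like nuclei (1.69, 1.10 to 2.62) and CAPN1 in PUT direct SPN-like nuclei (1.54, 1.10 to 2.15) were higher.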

How the data were processed

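Nuclei were isolated with a kit and run on the 10x Chromium 3′ v3 platform, per the labels' protocols. The authors deposited UMI counts per gene and nucleus from Cell Ranger 7.0.1, per the file headers and the submitters' processing notes. The notes name hg38, while the gene identifiers in the deposited count matrices are of Macaca fascicularis; the annotation release and strand setting are not given in the sources used here. The organism is given as Macaca fascicularis and the extract protocol names Macaca mulatta. Each of the 6 matrices was assigned to its region and group from its name, and holds several labelled samples that its barcodes do not separate. Vector cargo is not reported here.

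A nucleus was retained if it had 500 genes or more, no more than 5% of its UMIs from mitochondrial genes and a doublet score up to 0.25. Between 1.66% and 5.62% of barcodes in a matrix were over that score limit. They were clustered jointly without batch correction (scanpy 1.11.5; 2000 variable genes, 30 components, Leiden resolution 1, and again within clusters at 0.5). Clusters were named from the UMIs of fixed markers relative to the highest cluster, and no correction for free RNA was made. Python 3.11.15 and scipy 1.17.1 were used.

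UMIs were summed by class and library. Intervals of levels are Poisson, of shares Clopper-Pearson and of ratios conditional binomial, and they cover counting error only, since UMIs of 1 library share its animals. Log2 ratios used 0.5 added UMIs. Poisson counts of 9871 genes were simulated from all SN CT nuclei at 1/4 depth. Of 200 genes changed 2-fold, 99% were called, and of the unchanged genes 0.672%. The simulation held no difference between animals or libraries and more UMIs than small classes have, so it checks the calculation only. Genes named are the 5 members, the 3 most similar genes of each, the listed genes past the fold (at most 4 in each direction and comparison), and for clusters their leading genes. The members and lists were chosen with earlier results of these data known. The naming thresholds, the comparison within clusters and that of nuclei without neuron-marker UMIs were chosen after seeing the data. Alternatives were a stricter gene minimum (1000), a doublet limit of 0.15, thinning to 1000 UMIs, no shared barcodes, Leiden resolution 2, clustering by library, mixed barcodes added, TMM-type scaling and a mean over nuclei. Thinning left out nuclei with fewer than 1000 UMIs.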

Additional observations from a re-analysis of the deposited data

Results flagged for a closer look

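NAMPT in oligodendrocyte-like nuclei went opposite ways between PD and CT in 2 regions. The PD to CT ratio was 1.47 in SN (1.21 to 1.79) and 0.606 in PUT (0.461 to 0.791), on 194 and 229 UMIs in SN and 178 and 83 in PUT. The difference between the regions was not tested, since each group has 1 library a region. In nuclei without neuron-marker UMIs the ratios were 1.52 and 0.578.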

How the results depend on the processing

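No paired analysis was possible because the matrices carry no replicate numbers, and for the same reason no replicate could be left out. Of the PD to CT ratios under alternatives, 553 moved less than their counting interval, 34 moved more and 1 called ratio turned. Of the levels 721 moved less and 39 more, and of the shares 535 and 35. Depth limits NMNAT1, NMNAT3 and NAMPT most, and small classes could not be compared at all. For each change that follows, the cause was not tested, and values are log2 PD to CT ratios.

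With nuclei thinned to 1000 UMIs, NAMPT was 1.03 and NMNAT3 2.52 in dopaminergic neuron-like nuclei. NMNAT2 was 0.12 in CN direct SPN-like, 1.59 in CN oligodendrocyte-like, 0.70 in SN oligodendrocyte-like and 0.070 in SN other neuron-like nuclei. NMNAT3 was 2.04 in CN and 2.55 in SN other neuron-like nuclei. SARM1 was 0.64 in PUT direct SPN-like, -0.96 in CN oligodendrocyte-like, -0.45 in PUT and -0.49 in SN other neuron-like nuclei. Members past the fold downward numbered 3, with 2 in PUT direct SPN-like nuclei and 0 in dopaminergic, CN indirect SPN-like and SN myeloid-like nuclei.

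With at least 1000 genes a nucleus, NMNAT1 turned to 1.60 in CN oligodendrocyte-like nuclei, where 1 member was past the fold. NMNAT2 was 2.46 in CN and 0.99 in SN, NMNAT3 1.89 in PUT and SARM1 -0.48 in PUT oligodendrocyte-like nuclei. Without neuron-marker UMIs, NMNAT2 was 0.50 in SN precursor-like nuclei. With mixed barcodes added, NMNAT2 was 0.82 in PUT oligodendrocyte-like nuclei. As a mean over nuclei, NAMPT was 0.41 in dopaminergic neuron-like nuclei. With TMM-type scaling, NMNAT2 was 0.32 and 0.29 in CN direct and indirect SPN-like nuclei, 3 members were past the fold downward, and 1 was past it in CN direct SPN-like nuclei.

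Within clusters, NAMPT was -0.89 in CN direct SPN-like and 0.18 in CN oligodendrocyte-like nuclei. NMNAT1 was -1.22 in CN direct, -1.0 in PUT direct and -1.02 in PUT indirect SPN-like nuclei. NMNAT2 was 0.13 in PUT direct SPN-like, 0.073 in CN indirect SPN-like and -0.26 in CN other neuron-like nuclei, and NMNAT3 was 0.39 in PUT direct SPN-like nuclei. SARM1 was 0.51 in CN direct and PUT direct SPN-like, 0.29 in PUT indirect SPN-like and 0.93 in PUT oligodendrocyte-like nuclei. There 7 members were past the fold upward and 9 downward, with 5 in PUT oligodendrocyte-like, 1 in CN oligodendrocyte-like, 1 in PUT indirect SPN-like and 0 in dopaminergic, SN myeloid-like and CN other neuron-like nuclei. Of the 16 values past the fold, 10 were past it in both. With the doublet limit at 0.15, 1 member was past the fold in PUT indirect SPN-like and 3 in SN other neuron-like nuclei, and without shared barcodes 1 and 2. With each library clustered on its own, 0 were past it in CN other neuron-like nuclei.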
